A study of Saccharomyces cerevisiae with 16 samples.

Results

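The steady state of the chemostat, before any glucose was added, is described here by the level of each gene on the 3 arrays of that state, out of 16 arrays in all. The yeast was Saccharomyces cerevisiae CEN PK 113-7D, a laboratory strain, grown aerobically with carbon limiting growth. A chemostat is a culture that is fed and drained at the same rate, so that cells grow at a set pace on whatever the feed leaves them. The labels give a dilution rate of 0.05 per h, pH 5, 30 °C and a feed with 27.1 g of glucose and 1.42 g of ethanol per l, which carried about 15 g of dry cells per l. The other 13 arrays were taken 30 to 330 s after a glucose pulse to about 1 g per l (5.56 mM), and their titles carry the same pulse numbers 1, 2 and 3. They serve here only as further arrays on which to look for differences between the pulse numbers, and all later arrays of pulse 3 share a day with its steady-state array. By the labels, samples of every time but 210 s were drawn in 2 or more independent cultures. They do not say that pulses 1, 2 and 3 were 3 different cultures, so the arrays are called pulse 1, 2 and 3 below, and their spread may hold technical as well as culture differences.

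Each array reports 1 brightness, or signal, for each of 9335 probe sets, which are groups of short DNA probes that bind labelled RNA of 1 gene. Of these, 6504 carry exactly 1 gene and are not controls, and they stand for 5656 genes, of which 5486 code for proteins, 91 are tRNA genes and 57 are snoRNA genes. Where a gene had several probe sets, the brightest over all 16 arrays was used. Every array was rescaled to the same mean of 150 after trimming 2% of the probe sets at each end, and a signal at or under a floor of 12 is called at background. Values in sentences run in the order pulse 1, 2 and 3, and errors are SDs over these 3 arrays (n = 3). Brightness also depends on the probes. Among the 315 genes with several probe sets, the brightest and dimmest set differed over 2-fold in 229 (72.7%) and over 8-fold in 82 (26.0%), with a median of 3.76-fold. An order of signals between genes is therefore not an order of transcript number.

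Yeast with plenty of glucose ferments it to ethanol and represses the genes for respiration and for the use of other carbon sources. When glucose only trickles in, that repression is lifted. Cells then take up glucose through high-affinity transporters, burn it through the tricarboxylic acid cycle and the respiratory chain, and express enzymes for ethanol, acetate, lactate and fatty acids. Slow growth is also known to go with more stress protection and with fewer ribosomes per cell. Ribosomal protein transcripts still rank among the most abundant of yeast.

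The deposited trimmed means of the 3 arrays were 109.7, 325.9 and 129.4, and after rescaling 7.25, 5.64 and 7.60% of genes lay at the floor. The log2 signals of 5656 genes correlated with Pearson coefficients of 0.971 to 0.975 between arrays, a description across genes, and the median gene differed by 0.242 to 0.264 on the log2 scale. The 3 arrays were hybridized or scanned on 3 different days, so pulse number and day cannot be told apart among them. The pulse 2 array had a narrower range: its 98th percentile was 1506, against 1614 and 1833, while its lower quartile was 15.8 against 12.4 and 10.7. The ACT1 control, which is probed near both ends of the transcript and gives a 3′ to 5′ ratio as a sign of RNA quality, stood at 3.39, 2.34 and 2.27. No probe set for mouse RNA, a negative control, passed 4.98 on these arrays.

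The brightest genes mixed cell surface, glycolysis, ribosome, stress and ethanol-use functions. SSA1, a cytosolic Hsp70 chaperone, read 6777, 4657 and 7710 and held the first or second place on each array. Its probe set is of a kind with limited specificity, and the SSA genes are alike in sequence. CCW12, a cell wall mannoprotein, read 6879, 4128 and 7088, and held the other of these places. The 20 brightest genes lay between 3187 and 6381 on average, and their highest and lowest arrays differed 1.28- to 1.98-fold.

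The rest of these 20 can be read by role. The cell surface was also represented by TIP1, a mannoprotein first found after cold shock, at 5234 ± 1444, and by HOR7, a small hyperosmolarity-responsive protein, at 4101 ± 868. Glycolysis was represented by TDH3 at 4565 ± 1018, TPI1 at 3976 ± 1072 and PGK1 at 3650 ± 798. The translation factor eIF5A gene HYP2 read 4580 ± 810. The alcohol dehydrogenase gene ADH2, which makes the enzyme that oxidizes ethanol and is a classic glucose-repressed gene, read 5143, 3336 and 4601. The stress genes DDR2 and HSP12, whose products accumulate in slowly growing and stressed cells, read 4045 ± 907 and 4022 ± 849. HXT6, a high-affinity glucose transporter gene, read 4350, 2717 and 3858. Another 7 of the 20 encode ribosomal proteins, from RPS21B at 4194 ± 932 to RPL24B at 3187 ± 391. The last is YDR524C-B, a small gene of uncharacterized function, at 5472 ± 1299.

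**Figure D1:**
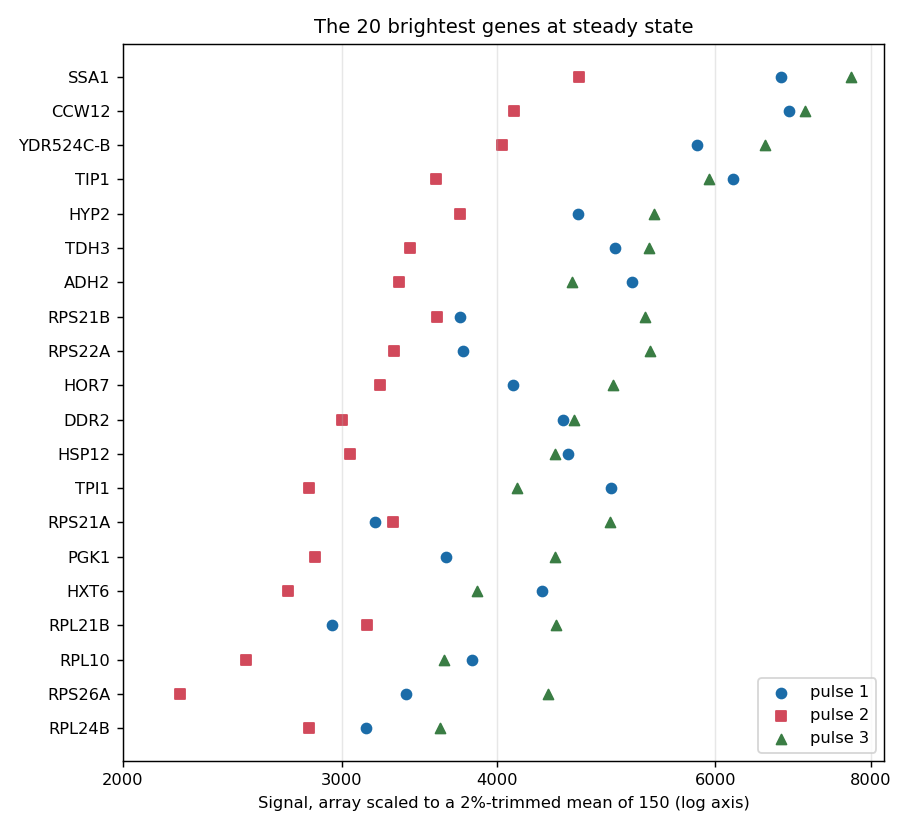
Signal of the 20 brightest genes on the 3 steady-state arrays, 1 symbol for each array, on a log axis. For 18 of the 20 genes the pulse 2 array gave the lowest value, and for the other 2, RPS21A and RPL21B, it was the pulse 1 array.

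The membership of the brightest set was largely shared between arrays. The 20 brightest genes of each steady-state array had 14 in common for pulses 1 and 2, 15 for 1 and 3 and 17 for 2 and 3. All 20 genes brightest by their mean stood among the 100 brightest on each of the 16 arrays of the series. Of the 100 brightest genes of each steady-state array, 80 were shared by the 3 arrays, 22 of them ribosomal protein genes and 7 of them glycolytic, and 58 genes were shared by all 16 arrays. The 100 brightest genes took 20.6, 17.7 and 22.4% of the summed signal of all genes, and the 500 brightest took 50.6, 47.3 and 53.2%. Of the 80 shared genes, 25 lay outside the gene lists described next. Among these, named after their values were seen, were CYB2, the mitochondrial lactate dehydrogenase that feeds electrons to cytochrome c, at 2055 ± 220, MPC3, the pyruvate carrier subunit of respiring mitochondria, at 2427 ± 274, MIR1, the mitochondrial phosphate carrier, at 2066 ± 499, and GCN4, the transcription factor of the amino acid starvation response, at 1938 ± 72.7.

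To describe whole systems, 29 gene lists were placed among all genes by percentile, with 100 as the brightest gene. The brightest 10% of all genes starts at a mean signal of 532. Among the measured members this top 10% held 17 of 21 glycolytic and fermentative genes, 72 of 80 cytosolic ribosomal protein genes, 13 of 18 genes of the tricarboxylic acid cycle, 18 of 24 of the respiratory chain, 13 of 17 of ATP synthase and 12 of 20 of gluconeogenesis, the glyoxylate cycle and C2 use. At the other end, it held 0 of 28 genes of meiosis and sporulation, 0 of 16 of phosphate uptake and its control and 1 of 19 hypoxic genes. The 80 ribosomal protein genes, 1.41% of the genes, took 9.70 ± 1.06% of the summed signal. Another 54 ribosomal protein genes were not counted because their probe sets also match a near-identical copy. Some of the 80, such as RPL14A and RPS25A, are themselves on probe sets of a kind that can match related genes, so their signals may be shared. That kind served 5.14% of protein-coding genes in the brightest 10%, against 1.02% of all protein-coding genes.

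**Figure D2:**
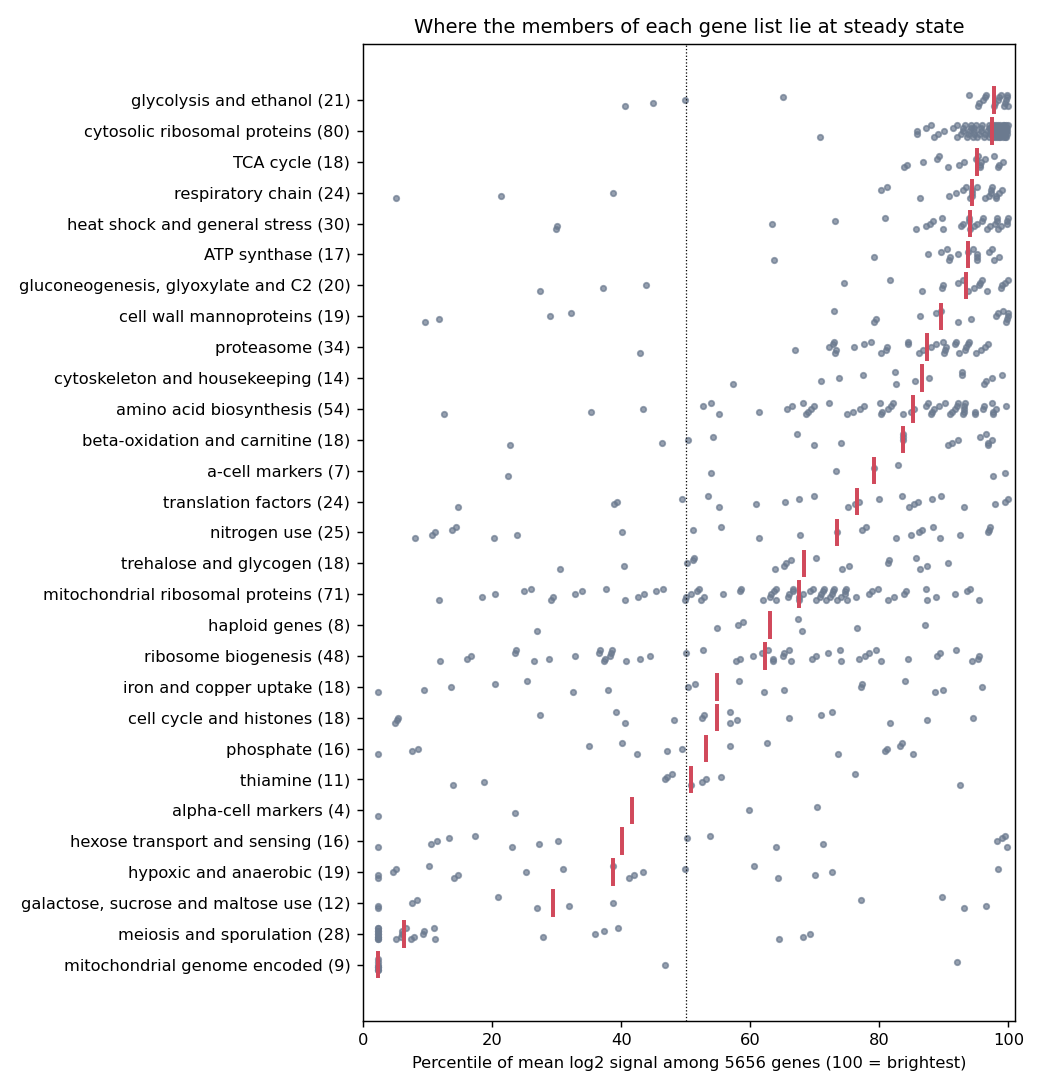
Percentile of the mean log2 signal of every measured member of 29 gene lists, each dot 1 gene, the red bar the median of the list, the number of genes in parentheses and the dotted line the median of all genes. List medians run from 97.8 for glycolysis and ethanol down to 2.32 for genes of the mitochondrial genome.

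Glucose enters yeast through hexose transporters, which differ in affinity. The measured transporter genes split into a bright and a dim set. Of the 23 listed genes of transport and sensing, 6 were left out because their probe sets match several genes. HXT6, HXT7, HXT2 and HXT5 read 3642 ± 838, 2993 ± 587, 2184 ± 397 and 1805 ± 443, and no other of the 16 measured genes of transport and sensing passed 198, the mean of MTH1, a repressor of transporter genes when glucose is scarce. HXT6 and HXT7 encode near-identical high-affinity transporters whose probe sets do not separate them, so these 2 values may be shared. HXT2 is a further high-affinity transporter, and HXT5 is known from slowly growing cells. HXT1, the low-affinity transporter used at high glucose, read 23.2, 31.0 and 33.0, and HXT3, another low-affinity transporter, read 107 ± 7.84. HXT14 lay at the floor on all 3 arrays. The glucose sensor genes SNF3 and RGT2 were dim, at 25.1 ± 12.7 and 49.6 ± 4.00.

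Within glycolysis the 7 brightest genes, TDH3, TPI1, PGK1, FBA1, ENO1, GPM1 and ENO2, all encode enzymes from aldolase to enolase, while TDH1, a further gene of this stretch, read 1088 ± 27.4. Phosphorylation of glucose was represented by HXK1 at 2186, 1739 and 1910, by HXK2, the isoform that dominates at high glucose, at 925, 992 and 1037, and by GLK1, glucokinase, at 1249 ± 217. The phosphofructokinase subunits PFK1 and PFK2 read 821 ± 39.5 and 1008 ± 165. Of the 7, means were 3090 ± 401 for FBA1, 2572 ± 353 for GPM1 and 2893 ± 85.7 for ENO1, with TDH3, TPI1 and PGK1 as given above. The dimmest were minor isoforms, with ADH5 at 155 ± 4.70. PYK2, PDC5 and PDC6 read 73.5 ± 28.9, 82.2 ± 20.2 and 97.0 ± 31.3. None of the 21 genes differed over 2-fold between the 3 arrays.

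The enzymes that turn ethanol into acetyl-CoA formed a bright chain. After ADH2 come ALD4, the mitochondrial acetaldehyde dehydrogenase, at 2651 ± 272, ALD6, its cytosolic counterpart, at 1269 ± 210, and ACS1, an acetyl-CoA synthetase, at 2276 ± 453. The transporter genes JEN1, for lactate, and ADY2, for acetate, read 2100 ± 336 and 1030 ± 131. The feed itself held ethanol, as given above. The enzymes specific to the glyoxylate cycle were in the upper part of the range, with ICL1, isocitrate lyase, at 1078 ± 182 and MLS1, malate synthase, at 523 ± 64.6. Those specific to gluconeogenesis were dimmer, with FBP1 at 308 ± 54.5 and PCK1 at 227 ± 58.1. The activators of this gene set were the dimmest of the 20, with ADR1 at 78.5 ± 9.02, SIP4 at 63.2 ± 9.68 and CAT8 at 44.4 ± 1.07.

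Respiratory genes were bright with few exceptions. In the tricarboxylic acid cycle all 18 measured genes lay in the upper part of the range, from SDH2, a succinate dehydrogenase subunit, at 2347 ± 368 to IDH1, an isocitrate dehydrogenase subunit, at 347 ± 68.0. In the respiratory chain the brightest were the cytochrome oxidase subunits COX12 at 2287 ± 392 and COX8 at 1955 ± 356 and the bc1 complex subunit QCR6 at 1713 ± 203. QCR8, another bc1 subunit of the same complex, read only 51.0, 51.6 and 15.5. Its nuclear partners QCR7 and QCR9 read 1443 ± 106 and 1459 ± 63.6. In ATP synthase the range went from TIM11, a dimerization subunit, at 2013 ± 394 to ATP20 at 149 ± 11.8.

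Genes of the mitochondrial chromosome behaved otherwise. Of the 19 measured, 17 lay at the floor on all 3 arrays, against 4.63% of all genes. COB, COX2, COX3 and ATP6, which encode subunits of the same respiratory complexes as the bright nuclear genes, had means of 6.58, 4.10, 5.74 and 4.80. The exceptions were OLI1, subunit 9 of ATP synthase, at 684, 758 and 535, and COX1 at 68.6, 176 and 51.0. How far labelling and probe choice set these values was not tested.

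Isozyme pairs, in which 1 reaction has 2 genes, were compared by the signals of their probe sets. Probe sets of 1 gene differed by up to 105-fold (ALD6), and all pairs but HYP2 with ANB1, PET9 with AAC3 and, on some arrays, HXT7 with HXT1 lay within that, so an order of signals is described and not a split of transcripts. In all 24 pairs measured the same gene was the brighter on each of the 3 arrays, over 2-fold on every array in 17 pairs and over 8-fold on every array in 8. Several pairs are known to switch with oxygen. COX5A, the aerobic subunit of cytochrome oxidase, read 805, 810 and 1011, while COX5B, its hypoxic form, read 10.3, 13.3 and 10.2. The aerobic eIF5A gene HYP2 stood at least 132-fold above the hypoxic ANB1 in signal on each array, and PET9, the main ADP/ATP carrier, at 1439, 1265 and 1407, faced AAC3, its anaerobic form, at the floor on 2 of 3 arrays. For the cytochrome c genes, CYC1 read 834 ± 49.1 and CYC7 67.0 ± 14.4.

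Other pairs are known to switch with carbon source. ADH2 was brighter than ADH1, which makes the fermentative enzyme and read 1996, 1583 and 1966, by 2.11- to 2.58-fold. IDP2, the cytosolic NADP isocitrate dehydrogenase, read 1098, 586 and 818, against 126, 145 and 143 for the mitochondrial IDP1. ACS1 stood 3.95- to 4.67-fold above ACS2, and HXK1 1.75- to 2.36-fold above HXK2. Pyruvate kinase was represented by CDC19 at 1647 ± 211 over PYK2, and pyruvate decarboxylase by PDC1 at 1196 ± 227 over PDC5. ADH1 and ADH2 are closely alike in sequence, and cross-reaction between their probe sets was not tested.

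**Figure D3:**
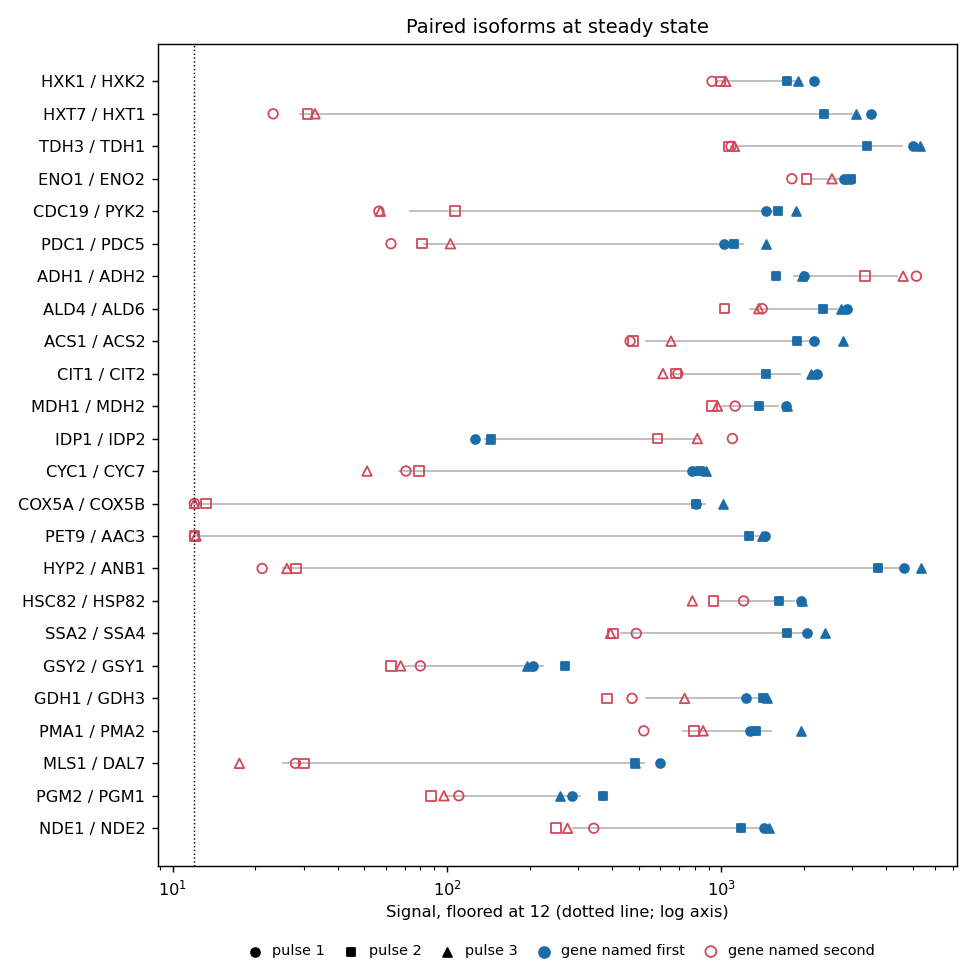
Signals of 24 isozyme pairs on the 3 steady-state arrays, filled symbols for the gene named first and open symbols for the gene named second, on a log axis with signals under 12 drawn at 12. The filled and open symbols of a pair do not overlap on any array, and ADH1 with ADH2 and IDP1 with IDP2 are the pairs whose second gene is the brighter.

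Stress protection and the cell wall were bright, and stores were less so. Of 30 stress genes, 19 lay in the brightest 10%. Besides SSA1, DDR2 and HSP12 these included SSA2, another Hsp70 gene, at 2060 ± 327, HSC82, the constitutive Hsp90 gene, at 1846 ± 194, and HSP26, a small heat shock protein gene, at 1787 ± 228. CTT1, cytosolic catalase, was the dimmest of the list at 57.5, 63.2 and 32.4, while CTA1, the peroxisomal catalase, read 1285 ± 152. Of 19 measured cell wall genes 9 lay in the brightest 10%, with CWP2 at 3062 ± 456 after the genes named above. The flocculin genes FLO1 and FLO5 read 19.2 ± 13.0 and 16.6 ± 15.8 and were at the floor on some arrays. Of 18 trehalose and glycogen genes only TPS2, trehalose phosphatase, at 563 ± 52.4, reached the brightest 10%, and GLG2, a glycogen primer protein gene, read 50.8 ± 9.40.

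Genes of fatty acid degradation were spread over the upper part of the range. Of 18 genes of beta-oxidation and carnitine transfer, 8 lay in the brightest 10%. POT1, the peroxisomal thiolase, read 1547, 1384 and 1614. SPS19, an enzyme for unsaturated fatty acids, read 1345 ± 229, TES1, a thioesterase, 1360 ± 361, and FOX2, the multifunctional enzyme, 1248 ± 239. Of the activators that induce these genes on oleate, OAF1 read 87.2 ± 30.1 and PIP2 read 75.7, 125 and 91.9. DCI1, an isomerase gene of the pathway, read 37.1 ± 8.45.

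Systems for other nutrients that were not limiting differed gene by gene. PHO84, the high-affinity phosphate transporter, read 15.3, 20.3 and 10.8 and PHO5, the secreted acid phosphatase, lay at the floor on all 3 arrays, while the low-affinity transporters PHO90 and PHO87 read 338 ± 12.4 and 297 ± 39.5. Ammonium assimilation was bright, with GDH1 at 1372 ± 124 and GLN1 at 1353 ± 351, as was PUT4, the proline permease, at 1391 ± 195. Allantoin genes such as DAL1 stood at 19.7 ± 3.45. In galactose use GAL1 and GAL7 lay at the floor on all 3 arrays, GAL10 did so on 2 of them, and the regulator GAL80 read 66.7 ± 12.9. The maltose permease gene MAL11 and the invertase gene SUC2 read 1216 ± 108 and 740 ± 75.8, and the probe set of SUC2 is of a kind that can match related genes.

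The machinery of growth did not share 1 place in the ranking. The median percentile was 97.5 for cytosolic ribosomal proteins, 62.3 for ribosome biogenesis, 67.5 for mitochondrial ribosomal proteins and 87.4 for the proteasome. Among cytosolic ribosomal genes the dimmest was RPL9A at 157, 256 and 181, whose probe set is of a kind with limited specificity. In ribosome biogenesis the box H/ACA and C/D particle genes NOP58 at 1013 ± 165, NHP2 at 975 ± 17.4 and GAR1 at 863 ± 36.2 led, and NOC2, an export factor of the large subunit, closed the list at 20.6 ± 2.17. Amino acid synthesis placed 20 of 54 genes in the brightest 10%, led by MET17, the sulfhydrylase of methionine synthesis, at 3114 ± 593 and LEU2 at 1754 ± 263. In the cell cycle list the mitotic cyclin CLB2 read 9.57, 9.53 and 12.7 and the S-phase cyclin CLB6 read 5.33, 13.7 and 5.79.

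Mating type and sporulation markers were read as well. The a-factor genes MFA1 and MFA2 read 2991 ± 731 and 1553 ± 449, and STE2, the receptor of a cells for the alpha pheromone, read 216 ± 33.7. The probe set of MFA1 is of a kind that can match related genes. Of the 4 alpha-cell markers, MF(ALPHA)2 lay at the floor on all 3 arrays and STE3, the receptor of alpha cells, read 38.2 ± 8.37, but MF(ALPHA)1 read 191, 204 and 184 and SAG1 140, 106 and 151. The 7 a-cell markers ran down to STE6 at 109 ± 24.2 and ASG7 at 20.2, 56.1 and 40.8, so the levels of the 2 sets overlapped. All 8 haploid genes were above the floor on all 3 arrays, as were 90.8% of all genes. Of 28 genes of meiosis and sporulation, 10 lay at the floor on all 3 arrays, among them ZIP2 and SPS2, and IME1, the inducer of meiosis, read 67.3 ± 1.63.

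In all, 262 genes (4.63%) lay at the floor on all 3 arrays, 233 of them protein-coding, and 5133 were above it on all 3. Of the 233, 68 (29.2%) have only a systematic name, against 443 of 5486 (8.08%) protein-coding genes. Their places on the chromosomes were counted too. Among the 10 outermost protein-coding genes at each end of the nuclear chromosomes, by their order in the RefSeq table, 29 of 201 measured (14.4%) lay at the floor, against 204 of 5285 elsewhere (3.86%), where the mitochondrial genes are counted with the latter. Most of the 233 stayed dim in the rest of the series: 67 were above the floor on at least 1 of the 13 later arrays and 8 on 6 or more. For snoRNA genes the floor was commoner, with 20 of 57 (35.1%) on all 3 arrays, against 5 of 91 tRNA genes (5.49%).

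The spread between the 3 arrays was read at each level of signal. The median SD on the log2 scale was 0.193 in the brightest 10% of genes and 0.330 in the 10% next to the dimmest, and in the dimmest 10% the floor hides the spread. Over all genes above the floor the median SD was 0.234, against 0.148 over the 3 arrays at 120 s and 0.200 over the 3 at 300 s, each of which also came from 3 different days. The steadiest of the 500 brightest genes included ERG1, squalene epoxidase, at 690, 697 and 677, PIL1, an eisosome protein gene, at 959, 923 and 924, COX13 at 753, 759 and 785, and LEU4 at 1510, 1578 and 1536. A further 4 were YGR161W-C, NHP2, YCP4 and PST2, each within 1.05-fold over the 3 arrays.

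Of 5133 genes above the floor on all 3 arrays, 364 (7.09%) spanned more than 2-fold, and 248 of these 364 were dimmer than the median gene. The largest span among protein-coding genes was that of GTO1, an omega-class glutathione transferase, at 41.6, 74.3 and 13.0. YSY6, a secretory pathway protein gene, read 328, 339 and 69.0, and RSC1, a chromatin remodeller subunit, 85.2, 100 and 22.5. KIN2, FIP1 and YDR524W-C also spanned over 4-fold. In the brightest 10% only 7 of 565 genes did so over 2-fold, among them RPS7A at 881, 1720 and 2295, RPL39 at 495, 941 and 1135, PNC1, the nicotinamidase, at 1500, 1360 and 663, and GPX1, a glutathione peroxidase, at 1059, 499 and 718.

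tRNA genes made up 45 of the 364. Of 71 tRNA genes above the floor on all 3 arrays, these 45 (63.4%) spanned over 2-fold, against 310 of 5023 protein-coding genes (6.17%). SUF6 read 84.8, 469 and 336, SUF1 94.5, 421 and 323, and YNCJ0005C 21.5, 138 and 51.9. The median over the 71 genes was 74.9, 147 and 110, and the pulse 1 array was the highest for only 1 of them. That part held under other scalings, with the pulse 1 array highest for 4 of 66 after median scaling and 3 of 64 after quantile normalization. The order of the other arrays did not: pulse 2 was highest for 46 of 71, for 23 of 66 after median scaling and for 32 of 64 after quantile normalization. The summed signal of the ribosomal RNA control probe sets had the same order as the tRNA median on these 3 arrays, at 655, 2881 and 1820. On later arrays the 2 did not always go together. In pulse 1 the tRNA median was 61.2 at 120 s and 69.6 at 210 s, with control sums of 2725 and 3123. In pulse 3 at 300 s both were low, at 80.5 and 741. The part of ribosomal RNA in the tRNA spread was not tested. Of the 91 tRNA probe sets, 75 are of the kind that matches several members of a family, so these genes are not independent readings.

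**Figure D4:**
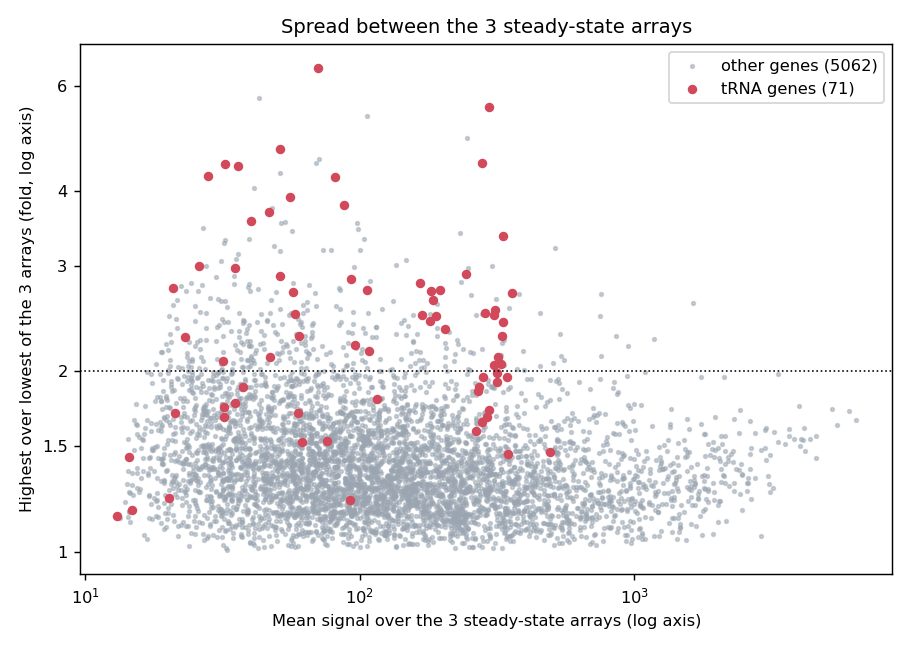
Ratio of the highest to the lowest steady-state array against the mean signal, both on log axes, for 5133 genes above the floor on all 3 arrays, with tRNA genes in red and the dotted line at 2-fold. Of the 71 tRNA genes 45 lie above the line, and the 364 genes above it thin out toward high signal.

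Gene lists also leaned to 1 or another array. Mitochondrial ribosomal protein genes were highest on the pulse 1 array in 44 of 71 cases and proteasome genes in 22 of 34, against 1831 of 5133 for all genes. After median scaling these counts were 40 of 71 and 25 of 34, against 1805 of 5111 for all genes, and after quantile normalization 43 of 71 and 24 of 34, against 1866 of 5087. Cell wall genes were highest on the pulse 3 array in 14 of 17 cases, against 1242 of 5133 for all genes. After median scaling the counts were 16 of 17 against 2199 of 5111, and after quantile normalization 12 of 17 against 1686 of 5087. Cytosolic ribosomal genes were highest on pulse 3 in 57 of 80 cases and in 70 of 80 after median scaling, but in 33 of 80 after quantile normalization. The ACT1 3′ to 5′ ratio was highest on the pulse 1 array, as given above, and its part in these shifts was not tested.

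Whether such differences returned with the pulse number was asked of 12 later arrays, which were not used to describe the steady state. All pulse 3 arrays, the steady-state one included, share a day that holds no other pulse, so pulse 3 and that day cannot be told apart. The pulse 2 arrays at 30, 60, 120 and 300 s share another day that holds no other pulse. At those times pulse number and day cannot be told apart between pulses 2 and 3. A linear model with time point and pulse number was fitted with limma to the arrays at 30, 60, 120, 300 and 330 s. Arrays of 1 pulse number at different times stand in as its repeats, so the p-values do not measure a spread between cultures. Of 5368 genes, 52 (0.969%) differed between the pulse numbers at an adjusted p under 0.05, and 920 at an unadjusted p under 0.05. With day as a random block limma called 0 genes, so none of the calls given next holds under that fit. Of the 364 genes that spanned over 2-fold at steady state, 20 (5.49%) differed in the main fit. They included 9 of the 45 spanning tRNA genes and 10 of the 310 spanning protein-coding genes. Of all 85 tRNA genes tested, 11 differed, and these genes are not independent readings, as given above. In 19 of the 20 the steady-state arrays that were highest and lowest had the same order in the later arrays, the exception being YIL171W. Among all 364 they did so in 260. The same count was not made for the other genes, so neither count has a share to be set against. Of the 5004 other genes tested, 32 (0.639%) differed. Pulse 3 against pulse 2 alone called 13 genes (0.242%), 9 higher and 4 lower in pulse 3.

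Several of the 20 were protein-coding genes that were brighter in pulse 3, here named after their values were seen. YAT1, a carnitine acetyltransferase gene, read 240, 255 and 646 at steady state, and in the later arrays pulse 3 exceeded pulse 1 by 1.18 ± 0.19 and pulse 2 by 1.09 ± 0.15 on the log2 scale (SE; limma F test over pulse numbers, adjusted p = 0.0169). ILV6, the regulatory subunit of acetolactate synthase, read 336, 338 and 687 (adjusted p = 0.0169 by limma). CAR2, ornithine transaminase, read 299, 312 and 748 (adjusted p = 0.0291), DSK2, a ubiquitin-binding protein gene, 362, 279 and 899 (adjusted p = 0.0291), and TOS6, a cell wall protein gene, 219, 172 and 518 (adjusted p = 0.0301). The smallest adjusted p of all genes, 0.000222, was that of SNR67, a snoRNA gene that read 72.6, 66.2 and 76.0 at steady state. In the later arrays its difference of pulse 3 minus pulse 2 was -1.89 ± 0.14 on the log2 scale (SE). GDH3, the glutamate dehydrogenase of respiring cells, read 473, 384 and 735 and was 1.08 ± 0.12 higher in pulse 3 than in pulse 1 later (adjusted p = 0.00629). DIA1 was lower in pulse 3 than in pulse 1 later, by -0.94 ± 0.11 (SE; limma F test, adjusted p = 0.0158). GRE1, a stress-induced hydrophilin gene, was 0.78 ± 0.09 higher (limma F test, adjusted p = 0.0158). Its pulse 2 minus pulse 1 difference was 0.56 later but -0.38 at steady state. HXT5 was 0.57 ± 0.09 higher in pulse 3 than in pulse 1 (limma F test, adjusted p = 0.0169). SNR67, GDH3, DIA1, GRE1 and HXT5 did not span over 2-fold at steady state and are not among the 20.

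**Figure D5:**
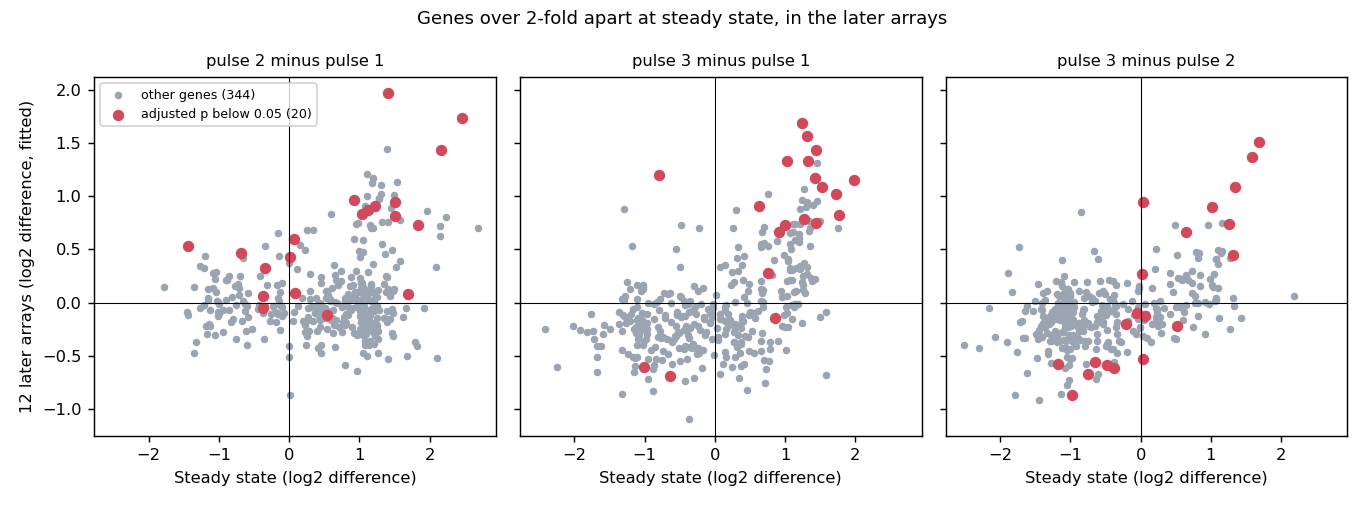
For the 364 genes over 2-fold apart at steady state, the log2 difference between 2 pulse numbers in the 12 later arrays (vertical) against the same difference at steady state (horizontal), in 3 panels. Red marks the 20 genes with an adjusted p below 0.05 for pulse number. In 19 of them the steady-state arrays that were highest and lowest had the same order later.

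Across all genes the steady-state differences were set against the same differences later. The difference of pulse 3 minus pulse 2 at steady state was correlated with the same difference later, over 5034 to 5106 genes. At 30, 60, 120 and 300 s r was 0.163, 0.277, 0.268 and 0.331. The pulse 3 arrays share a day, and the pulse 2 arrays at these later times share another. For pulse 3 minus pulse 1, r was 0.195 at 120 s and 0.289 at 300 s. For pulse 2 minus pulse 1, r was 0.0910 at 120 s and -0.0638 at 300 s, where the pulse 1 array shares its day with the pulse 2 steady-state array. The 1 comparison of pulse numbers within a single day, pulse 2 minus pulse 1 at 330 s, gave r = 0.0731. Of the genes over 2-fold apart at steady state, 65.1 to 70.8% differed in the same direction for pulse 3 minus pulse 2, and 66.9 and 78.4% for pulse 3 minus pulse 1. For pulse 2 minus pulse 1 this was 59.0% at 120 s, 45.1% at 300 s and 59.4% at 330 s. These correlations are descriptions across genes, which are not replicates. Leaving out single arrays moved the 52 calls to between 2 and 122, with 2 without the pulse 1 array at 300 s.

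Probe sets of the same gene set a scale for all orders between genes given here. The pair for ALD6 read 1269 ± 210 and 1.49 ± 1.37, and those for RPS10B 1185 ± 95.8 and 16.1 ± 13.3. FAS2, a fatty acid synthase subunit gene with 8 probe sets, ranged from 6.10 ± 2.97 to 1044 ± 102. FDH1 and YHB1 differed 97.6- and 63.9-fold between their brightest and dimmest sets.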

How the data were processed

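RNA of 16 samples of CEN PK 113-7D was read on Affymetrix arrays of 9335 probe sets. The authors deposited 1 linear signal intensity per probe set and array, and the submitters' processing notes name GCOS. Which version, and with which options, is not given in the sources used here. These intensities were not on a common scale. Each array was therefore rescaled to a mean of 150 after trimming 2% at each end, floored at 12 (8% of that mean) and put on the log2 scale. The 60 control probe sets, 328 with several genes and 2443 with none were left out. Genes were named from the platform annotation and updated by identifier through a RefSeq table (R64 assembly), in which all 6504 probe sets were found. Where a gene had several probe sets, the one with the highest mean log2 signal over 16 arrays was kept. Levels, ranks and SDs were described without a test, since each steady-state array is the sole one of its pulse number.

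Pulse number was tested with limma 3.58.1 in R 4.3.3 (moderated F test, eBayes with trend, time point as covariate) on 12 later arrays, over 5368 genes above the floor on at least 2 of them, with Benjamini-Hochberg adjustment at 0.05. The single 210 s array entered no test. The p-values measure the spread between these samples, which may be technical, and the number of arrays limits the precision. The fit was also run on simulated data. Their noise was drawn independently for each array, without a day effect, so they cannot show how day bears on the calls. Other tables were made with Python 3.11.15, numpy 2.4.6 and pandas 2.3.3.

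The members and the 29 gene lists were chosen with earlier results of these data known. Genes that could be named were drawn by rule: the 20 brightest, up to 4 of the brightest and 2 of the dimmest members of each list, both members of each pair, the 12 with the largest span and the 8 steadiest of the 500 brightest, those with the 6 smallest adjusted p-values, and the 5 whose probe sets differ most. Not every gene so drawn is named in the text, and several tRNA genes with a large span are left out. Some members of the pathways were named in addition for their roles, after their values were seen. Alternatives changed the scaling, the floor, the probe set kept, the suffixed probe sets, the arrays, the dim-gene filter, the variance model and the treatment of day.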

Additional observations from a re-analysis of the deposited data

How the results depend on the processing

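The 100 brightest genes of each array kept had 79 to 89 genes in common under every alternative run. Where 1 steady-state array was left out, this is an overlap of 2 arrays, with 85 to 89 genes. The 262 genes at the floor became 120 with the floor halved and 596 with it doubled, and lay between 247 and 391 otherwise. The 364 genes spanning over 2-fold became 1641 at 1.5-fold and 44 at 3-fold, and 147 to 190 when 1 steady-state array was left out, which leaves a span over 2 arrays. The count for pulse number, 52 over all and 13 for pulse 3 against 2, with 20 among the genes spanning over 2-fold, depended most on the settings. With no filter on dim genes the 3 counts were 0, 1 and 0, without a variance trend 1, 1 and 0, without 330 s 33, 22 and 9, with pulse 2 and 3 alone 23, 23 and 5, with day as a random block 0, 0 and 0, and with the steady-state arrays added 116, 37 and 49. Median scaling gave 81 over all and 35 among the spanning genes, and halving the floor 91 and 33. Leaving out 1 later array gave 2 to 122, 1 to 22 and 0 to 38. The causes were not tested. Of 2054 alternative values for single genes 115 moved by more than 1 SD over the arrays, and of 261 list medians 26 did. Leaving out 1 of the 3 steady-state arrays cannot shift the mean of a gene by 1 SD. Single-gene values under these settings, 231 in each, could therefore not be among the 115. The hexose transport list fell furthest, from a percentile of 40.2 to 28.8, without suffixed probe sets. No paired analysis was possible because the pulse number, the one number that samples share, is itself the term tested. Signal near the floor limits what can be said of dim genes.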

Other observations

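Metal, vitamin and oxygen-related genes lay mostly in the middle of the range. Of 18 iron and copper uptake genes, CTR3, a high-affinity copper transporter, was the brightest at 1308, 1029 and 923, and CTR1, the other one, read 230, 349 and 188. FIT3, a cell wall mannoprotein that helps retain siderophore iron, read 400, 485 and 746, FTR1, the iron permease, read 343 ± 10.7, and its partner oxidase FET3 read 38.7, 69.4 and 99.3. Among 11 thiamine genes the transporter THI7 led at 707 ± 190. Of 19 hypoxic genes, OLE1, the fatty acid desaturase, was alone in the brightest 10% at 1817 ± 182, while HEM13 read 24.7 ± 9.03 and DAN1 and the sterol regulator UPC2 lay at the floor on all 3 arrays.

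Probe sets without a named gene were not all dim. Of these 2443, 1113 (45.6%) lay at the floor on all 3 arrays, against 554 of 6504 (8.52%) with 1 gene, and 62 reached the range of the brightest 10% of genes. Of the 328 probe sets with several genes, 123 reached it.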
